A study of Rattus norvegicus with 8 samples.

Results

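Ubiquitin ligase and deubiquitinase genes held 57 of the 1967 regions whose m6A signal the authors listed as different after Mettl3 overexpression, and 49 of the 1726 listed genes. Members were chosen by a rule on gene names, which took the numbered members of the Usp, Otud, Ubr, Trim, Rnf, Cul, Herc, Hecw, Hectd, Klhl, March, Smurf and Birc series and all names beginning with Ube, Fbxo, Fbxw or Fbxl, together with Keap1, N4bp1, Nedd4, Nedd4l, Huwe1, Mib1 and Cbl. Of the genes taken by their exact names, Keap1, N4bp1 and Huwe1 had a region with an adjusted p of the authors under 0.05. No listed region lay in Nedd4l or in a Birc gene.

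Vascular smooth muscle cells (VSMCs) in primary culture from the rat were used, the contractile cells of the arterial wall. They either overexpressed Mettl3, the catalytic subunit of the enzyme that writes N6-methyladenosine (m6A) on RNA, or carried a vector as control. The assay was MeRIP-seq, in which RNA fragments pulled down with an antibody against m6A are sequenced beside an unenriched input. The 8 libraries formed 4 groups of 2, IP (immunoprecipitation) and input for overexpression and for vector, and the labels give neither the age or strain of the rats, nor the overexpression vector, nor whether libraries of 1 group are separate isolations. What was examined is the authors' own comparison of the conditions, 1 fold, p-value and adjusted p per region, so depth and replicate spread are unknown. More m6A on an RNA and more of the RNA itself cannot be told apart. Mettl3 itself carried 2 higher regions and 1 lower region, which is for the same reason no check of the overexpression. Of 8 smooth muscle markers 2 had a region, and none of 5 endothelial, 5 leukocyte and 4 fibroblast markers had one; a list of changed regions does not show which genes the cells express.

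Ubiquitin is attached to proteins in a relay. An activating enzyme hands it to a conjugating enzyme (E2), and a ligase (E3) brings the E2 and the target together. HECT ligases take the ubiquitin over on a cysteine of their own, RING ligases let it pass straight from the E2 to the target, and cullins are scaffolds that pair a RING protein with exchangeable adaptors such as F-box and BTB-Kelch proteins, which choose the target. Deubiquitinases take the mark off again. In vascular cells this system is known for setting the lifetime of receptors, Smad proteins and stress factors, and Nedd4l is a known target of Sgk1, the kinase named in the study's title.

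Most of these genes were listed as lower in Mettl3-overexpressing cells, in nearly every enzyme class. Of the 57 member regions, 51 in 44 genes were lower and 6 in 6 genes were higher, so that 89.5% were lower, beside 86.9% of all deposited regions. A region was taken to pass when the authors' adjusted p, deposited as a false discovery rate (FDR), was under 0.05. By that threshold 8 member regions were lower and 2 were higher. Over all deposited regions the same threshold gave 11.3% lower and 2.64% higher. The members' 8 of 57 and 2 of 57 are near that background, and neither count is a result about these genes. Within a direction, 8 of 51 lower members passed, beside 13% of all lower regions, and 2 of 6 higher members, beside 20.2% of all higher regions. At an adjusted p under 0.01, 6 of the 57 member regions passed as lower and 1 of the 57 as higher, beside 4.78% and 0.915% of all deposited regions. The members' share was the larger in both directions there. Keap1, the only higher region there, and N4bp1, among the lower ones, were taken by exact name with earlier results known. These shares are therefore partly set by the choice of members. With so few regions no result is read from them, and the difference was not tested. Passing lower regions lay in N4bp1, Rnf103, Usp34, Rnf111, Klhl42 and Ubr3, among others, and the 2 higher ones in Keap1 and Huwe1.

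**Figure D1:**
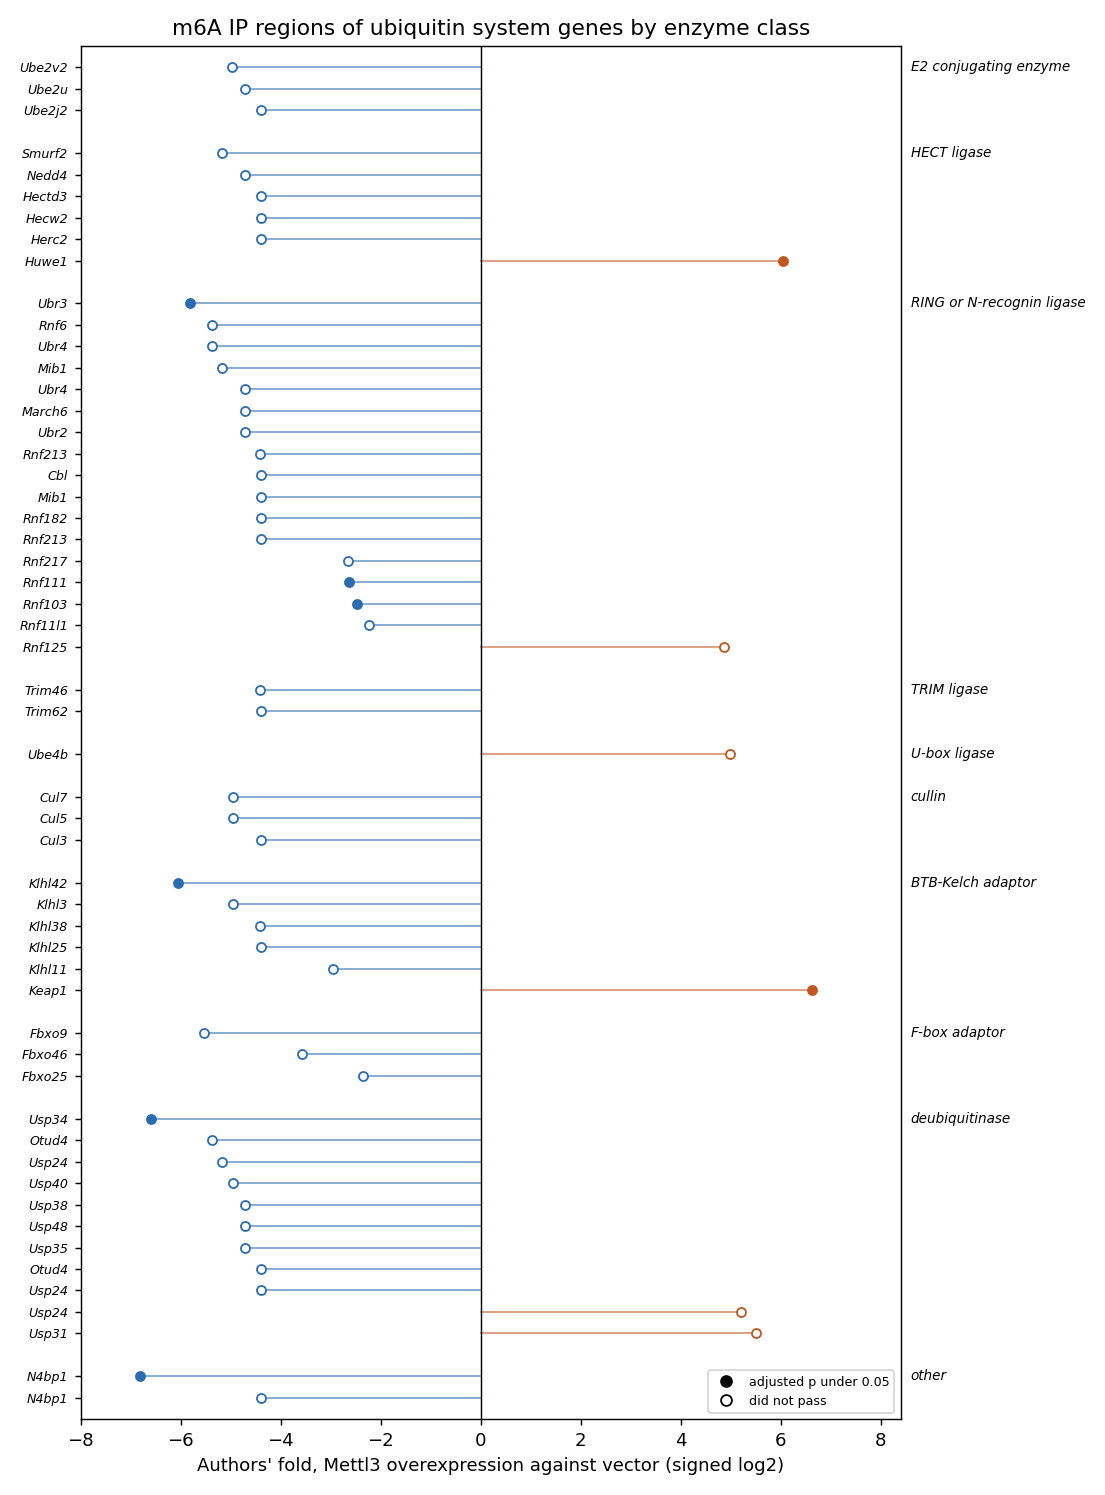
Signed log2 of the authors' fold (x axis, negative where signal was lower with Mettl3 overexpression) for 54 of the 57 regions, grouped by enzyme class; filled circles had an adjusted p under 0.05. The 48 lower regions drawn spread over 9 of the 10 groups, and the 6 higher ones lay in Huwe1, Rnf125, Ube4b, Keap1, Usp24 and Usp31.

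The folds need their scale. They are ratios of 2 mean signals, and their decimals have the form of means to which 0.1 was added, with 1 vector read worth 0.503 and 1 overexpression read worth 0.123. From these steps the smallest numbers of whole reads over the 2 libraries of a condition that give each fold were derived. They are called implied reads, which the tables do not hold, and they give nothing per library. Larger pairs of reads can give the same fold where both conditions have reads. Of the 51 lower member regions, 42 (82.4%) had 0 implied reads in the overexpressing cells, beside 82.7% of all lower regions. All 6 higher member regions had 0 implied vector reads, beside 56.0% of all higher regions. A fold against 0 is set by the added constant. Beside such folds a lower bound is therefore given, with 3 reads in place of the 0, first under the weights above and then as a plain ratio of reads. This bound allows for the 0 alone. It takes the other condition's reads as exact and covers no spread between libraries. The 2 values are bounds on different scales, which differ by the weight ratio of 4.09, and not 2 bounds on 1 quantity. Which scale fits the libraries was not tested.

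Among the HECT ligases, 7 lower regions and 1 higher region were listed in 7 genes. Huwe1, a very large ligase of p53, Myc and Mcl1 in human cells, was the only HECT gene listed as higher. Its region (ENSRNOT00000003882, chromosome X, 21899161 to 21899180) was listed at 66.2-fold with an FDR of 0.036 in the authors' deposited table, the passing value nearest to the threshold. The implied support was 53 overexpression reads against 0. That is at least 4.32-fold higher under the weights of the folds and at least 17.7-fold higher in reads alone. With a listed length of 19 bp it was the shortest passing member region.

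Of the lower HECT genes, Smurf2, Nedd4, Herc2, Hectd3 and Hecw2 did not pass. Smurf2, which ubiquitinates Smads and TGF-beta receptors, was listed at 36.3-fold with an FDR of 0.112 in the authors' deposited table, based on 7 implied vector reads against 0. Nedd4, which acts on membrane proteins, was listed at 26.1-fold with an FDR of 0.217 in the authors' deposited table, based on 5 against 0. Herc2, Hectd3 and Hecw2 each had the same fold of 21.1 and FDR of 0.248 in the authors' deposited table, based on 4 implied vector reads against 0, and the Hecw2 region was listed as 8 bp long.

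RING ligases, with the Ubr family that recognises N-terminal degradation signals, formed the largest class, with 16 lower regions and 1 higher region in 14 genes. The 3 that passed were all lower, in Rnf103, Rnf111 and Ubr3. Rnf103 is a ligase of the endoplasmic reticulum membrane. Its region (NM_053438, chromosome 4, 164193501 to 164193860, 359 bp) was listed at 5.57-fold with an FDR of 0.000867 in the authors' deposited table. The implied reads were 35 with vector and 25 with overexpression, a ratio of only 1.40.

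Rnf111, known as Arkadia, promotes TGF-beta signalling by degrading Smad7 and the repressors Ski and SnoN. Its region (NM_001106836, chromosome 8, 76178461 to 76178814, 353 bp) was listed at 6.23-fold with an FDR of 0.00157 in the authors' deposited table, based on 30 against 19 implied reads, a ratio of 1.58. For both genes the fold is therefore carried mainly by the heavier weight of a vector read, 4.09 times that of an overexpression read. Whether that weight matches the depth of the libraries was not tested. Ubr3 had a region of 90 bp (ENSRNOT00000072395, chromosome 3, 62794101 to 62794191) listed at 56.3-fold with an FDR of 0.024 in the authors' deposited table. Behind it stood 11 implied vector reads against 0, at least 15.0-fold lower under the weights and at least 3.67-fold lower in reads alone.

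Ubr4 and Ubr2, other members of the Ubr family, were listed as lower without passing. Ubr4 had 2 regions 64.0 kb apart listed at 41.2-fold and 26.2-fold in the authors' deposited table, based on 8 and 5 implied vector reads against 0, and the second was only 2 bp long, the shortest of all member regions. Ubr2 was listed at 26.1-fold (FDR 0.217) in the authors' deposited table, based on 5 reads against 0. Mib1, which ubiquitinates Notch ligands so that they can signal, had 2 lower regions listed at 36.2-fold and 21.1-fold in the authors' deposited table, 76.1 kb apart, the widest spacing within a member gene. Cbl, a ligase of receptor tyrosine kinases, was listed at 21.1-fold in the authors' deposited table, based on 4 reads against 0. Rnf213, a vascular disease gene in humans, had 2 regions 3.34 kb apart listed at 21.2-fold and 21.1-fold in the authors' deposited table, each from 4 reads against 0.

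Rnf6, a RING ligase, had a lower region listed at 41.3-fold with an FDR of 0.0787 in the authors' deposited table. Rnf217, a RING-between-RING ligase, had 15 against 9 implied reads and was listed at 6.32-fold in the authors' deposited table. Rnf11l1 (now Rnf11) had 18 against 15 implied reads, the smallest ratio of the members at 1.20, and the smallest fold, 4.70, in the authors' deposited table; a further gene of similar name, Rnf11l2, is annotated in the rat, so its reads are uncertain. March6 (now Marchf6), a ligase of the endoplasmic reticulum membrane, and Rnf182 were listed at 26.1-fold and 21.1-fold in the authors' deposited table, based on 5 and 4 implied reads. The 1 higher RING region lay in Rnf125, a ligase of the RNA sensor RIG-I, listed at 29.3-fold with an FDR of 0.276 in the authors' deposited table, the largest adjusted p of the members.

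The other ligase and E2 classes were small and had no passing region. Among TRIM ligases, Trim46 and Trim62 were listed at 21.2-fold and 21.1-fold in the authors' deposited table, each from 4 implied vector reads against 0. The U-box ligase Ube4b, which extends ubiquitin chains, was higher, listed at 31.8-fold with an FDR of 0.178 in the authors' deposited table, based on 25 implied overexpression reads against 0. Of the E2 genes 3 were listed, all lower. Ube2v2, an E2 variant without a catalytic cysteine, was listed at 31.3-fold (FDR 0.159) in the authors' deposited table. A Ube2v2 pseudogene is annotated, so its reads are uncertain. Ube2u and Ube2j2, the latter an E2 of protein quality control at the endoplasmic reticulum, were listed at 26.2-fold and 21.1-fold in the authors' deposited table, based on 5 and 4 implied reads.

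Cullin complexes were represented by 3 scaffolds and 10 adaptor genes. The cullins Cul5, Cul7 and Cul3 were all lower and none passed. Cul7 and Cul5 were listed at 31.2-fold and 31.1-fold in the authors' deposited table, each from 6 implied vector reads against 0. Cul3, the partner of the BTB-Kelch adaptors, was listed at 21.1-fold with an FDR of 0.248 in the authors' deposited table, based on 4 against 0.

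The BTB-Kelch adaptors included passing regions in both directions. Keap1, which holds the stress factor Nrf2 to Cul3 for degradation, had a higher region (NM_057152, chromosome 8, 22305941 to 22306240) with 80 implied overexpression reads against 0 vector reads. Its deposited fold was therefore set by the constant, and the difference was at least 6.52-fold under the weights and at least 26.7-fold in reads alone. The FDR was 0.0025 in the authors' deposited table. It was the best supported higher member.

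Klhl42, a Cul3 adaptor for the microtubule-severing protein katanin in human cells, was lower. Its region (NM_001109257, chromosome 4, 245651041 to 245651440) was the longest of the members, 399 bp, listed at 66.5-fold with an FDR of 0.00831 in the authors' deposited table. The implied support was 13 vector reads against 0, at least 17.8-fold lower under the weights and at least 4.33-fold in reads. The other adaptors of this class were lower and did not pass. Klhl3, the adaptor for WNK kinases in the kidney, was listed at 31.1-fold in the authors' deposited table, and Klhl38 and Klhl25 had 21.2 and 21.1. Klhl11 had reads in both conditions, 7 against 3, and a listed difference of 7.70-fold and an FDR of 0.233 in the authors' deposited table.

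All 4 F-box adaptors listed were lower. Fbxo25 was the nearest region on the other side of the threshold, listed at 5.10-fold with an FDR of 0.0528 in the authors' deposited table, based on 12 against 9 implied reads, a ratio of 1.33. Fbxo46 had 11 against 3 reads and a fold of 12.0, and Fbxo9 had 9 against 0 and a fold of 46.4, each with an FDR of 0.0787 in the authors' deposited table.

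Deubiquitinases accounted for 11 regions in 8 genes, 9 lower and 2 higher, and 1 lower region passed. Usp34, a large deubiquitinase that stabilises axin in human cells, had a region of 128 bp (NM_001271196, chromosome 14, 104979441 to 104979569) listed at 96.8-fold with an FDR of 0.00146 in the authors' deposited table. The implied support was 19 vector reads against 0. That is at least 26.0-fold lower under the weights of the folds and at least 6.33-fold in reads alone.

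Usp24 was the only member gene listed in both directions. Its first 2 regions were lower, listed at 36.3-fold and 21.1-fold in the authors' deposited table on 7 and 4 implied vector reads against 0. The third, 51.9 kb from the first and 29.0 kb from the second, was higher, listed at 36.7-fold with an FDR of 0.159 in the authors' deposited table, based on 29 implied overexpression reads against 0. None of the 3 passed, and they were 68, 48 and 43 bp long. Over all listed genes 45 of 1726 (2.61%) had regions in both directions, beside 1 of 49 (2.04%) here.

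Usp31, the other higher deubiquitinase, was listed at 45.3-fold with an FDR of 0.0787 in the authors' deposited table, based on 36 implied reads against 0. Otud4, a deubiquitinase of the OTU family, had 2 lower regions 3.63 kb apart listed at 21.1-fold and 41.2-fold in the authors' deposited table. Usp40, Usp38, Usp48 and Usp35 had folds from 26.1 to 31.1 in the authors' deposited table, based on 5 or 6 implied vector reads against 0.

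N4bp1, a protein that binds Nedd4-type ligases and is itself neither a ligase nor a deubiquitinase, had the member region with the smallest p. That region (NM_001305181, chromosome 19, 32274221 to 32274600, 379 bp) had an FDR of 0.000539 in the authors' deposited table and 22 implied vector reads against 0, the most of any lower member at 0. Its deposited fold, the largest of the lower members, was set by the constant; the difference was at least 30.1-fold under the weights and at least 7.33-fold in reads. A second N4bp1 region of 33 bp, 17.4 kb away, was lower too, listed at 21.1-fold in the authors' deposited table on 4 reads against 0, and did not pass.

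**Figure D2:**
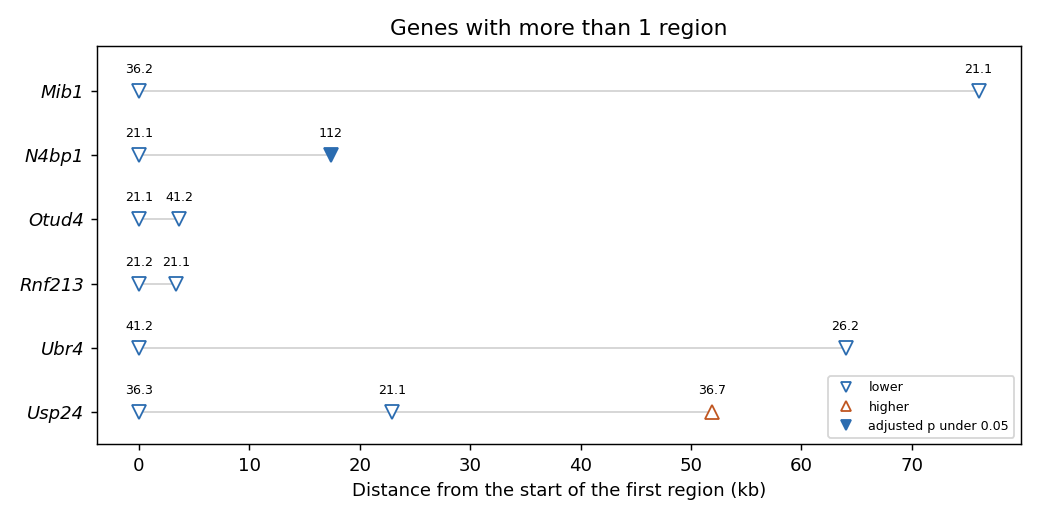
Regions of 6 of the member genes with more than 1 region, by distance in kb from the start of the first region (x axis); downward triangles were lower and upward ones higher with Mettl3 overexpression, filled ones passed, and each is marked with the authors' fold. N4bp1 had 1 passing region, and Usp24 alone had both directions.

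Genes with more than 1 region numbered 7, or 14.3% of the 49 members, beside 11.1% of all listed genes. In none of the 7 did a second region pass beside the first. The regions of a gene share its RNA, so they are not independent of each other.

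Many members that did not pass stood at the lowest support found among lower regions. Of the 42 lower member regions with 0 overexpression reads, 17 (40.5%) rested on 4 implied vector reads, the lowest number against 0 among all lower regions, where 28.1% did. A further 8 rested on 5 and 5 on 6. The median was 5 reads in members and 6 over all such regions. Between 4 and 8 reads, the unadjusted p of all such regions in the authors' deposited table went from about 0.0396 to 0.0403 at 4 reads down to 0.00218 to 0.00383 at 8. Within this range no member passed. The 5 passing lower members at 0 had 11 to 22 implied reads. Only regions with a fold of at least 4 and an unadjusted p of the authors under 0.05 were listed. At 4 reads the members' folds of 21.1 or 21.2 lay far above the fold limit. The lowest number of 4 reads therefore depends on the p limit and on the weight of a read.

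Many regions shared exactly the same values. Within the authors' deposited table, as many as 12 member regions shared a fold of 21.1 and a p of 0.0402, as did 231 deposited regions in all. The p-value was not fixed by the fold alone, since Smurf2 and the first Usp24 region shared a fold of 36.3 with p-values of 0.00463 and 0.00666 in the authors' deposited table. How reads were spread over the libraries of a group was not analysed here.

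**Figure D3:**
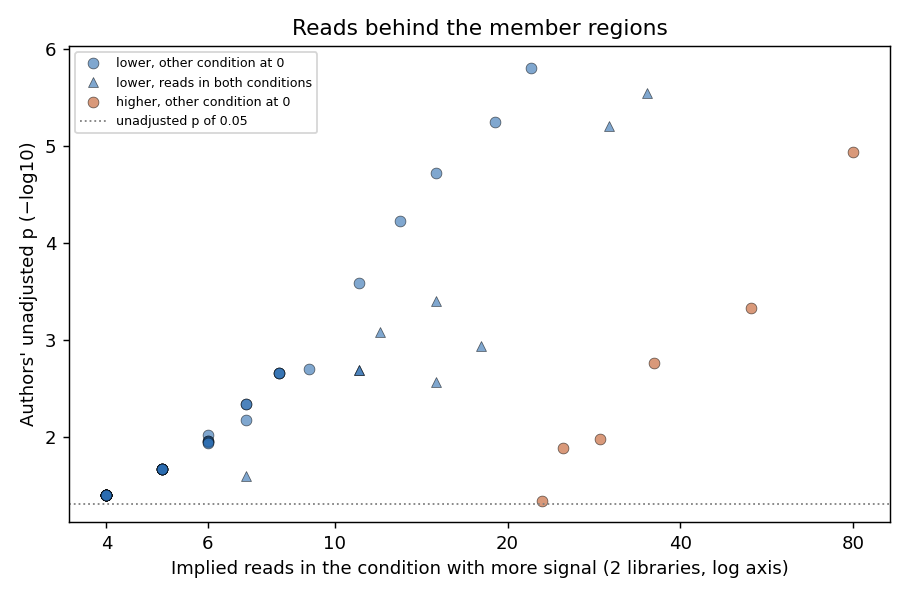
Implied reads in the condition with more signal (x axis, log scale) against the −log10 of the authors' unadjusted p (y axis) for the 57 member regions; circles had 0 implied reads in the other condition and triangles had reads in both. Among these regions, all listed at an unadjusted p under 0.05, lower ones at 0 began at 4 reads and higher ones at 23.

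Lower members at 0 had 4 to 22 implied vector reads, while the 6 higher members had 23 to 80 implied overexpression reads, each of which weighed less. Over all deposited regions at 0 the ranges were 4 to 46 reads for lower and 4 to 83 for higher regions. Only 2 higher regions stood at 4 reads and none at 5 to 8. Whether larger pairs of reads fit those 2 was not tested. The median of all higher regions at 0 was 31 reads, within the lower range, so the members' gap does not hold for the whole list. The 9 lower members with reads in both conditions had folds of 4.70 to 12.0 in the authors' deposited table but ratios of reads of 1.20 to 3.67. The median fold of lower members was 21.2, beside 26.2 for all lower regions, in the authors' deposited table. With 3 reads for a 0 these medians were 6.80 and 7.15 under the weights, and 1.67 and 2 as plain ratios of reads. For the higher members the median fold was 41.0, beside 25.6 for all higher regions, in the authors' deposited table. With 3 reads for a 0 it was 2.65 beside 4.19 under the weights, and 10.8 beside 17.7 as plain ratios of reads. For higher regions the order of members and all regions was thus the opposite under the last 2 readings. All higher members, but 56.0% of all higher regions, were at 0.

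**Figure D4:**
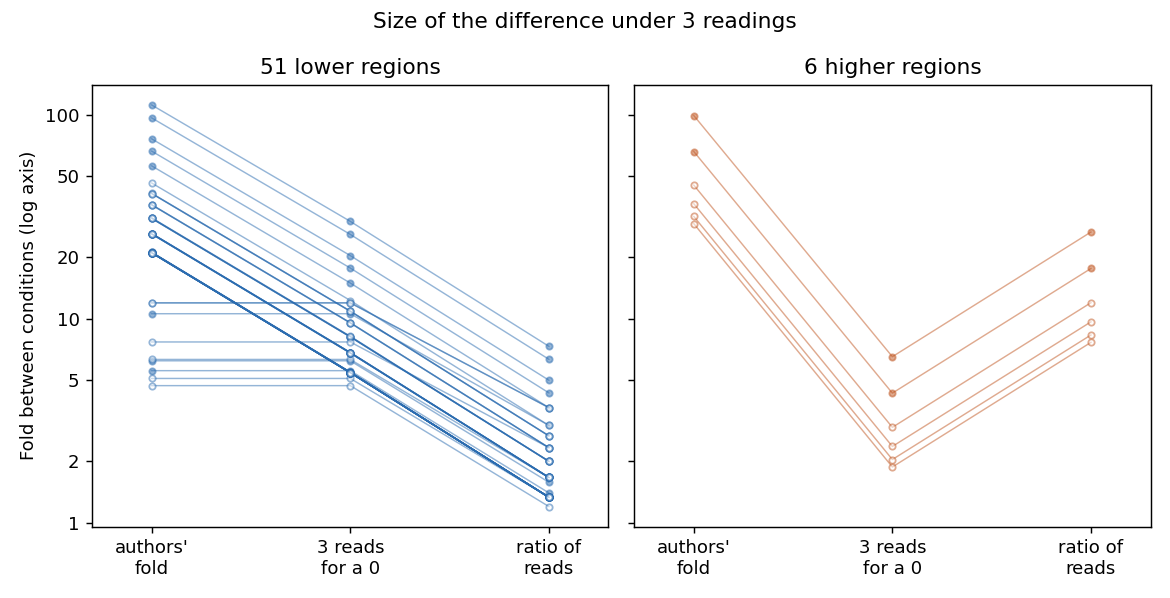
Size of the difference (y axis, log scale) for the 51 lower and 6 higher member regions as the authors' fold, with 3 reads in place of an implied 0, and as a plain ratio of reads; filled points passed. Lower members went from a median of 21.2 to 6.80 and 1.67, and higher members went from 41.0 to 2.65 and 10.8. The plain ratio also uses 3 reads for an implied 0, so such values are lower bounds.

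Lower members had a median length of 125 bp and all lower regions one of 132 bp. The 6 higher members had a median of 54 bp, with a range of 19 to 299 bp, beside a median of 127 bp for all higher regions. Of the 57 members 18 (31.6%) reached 200 bp, beside 29.0% of all regions. The 8 passing lower members were longer, with a median of 286 bp beside 109 bp in the other lower members; over all deposited regions these medians were 183 and 126 bp. Of the 10 passing members, 6 were at least 200 bp long, and Huwe1 was the only one under 20 bp.

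**Figure D5:**
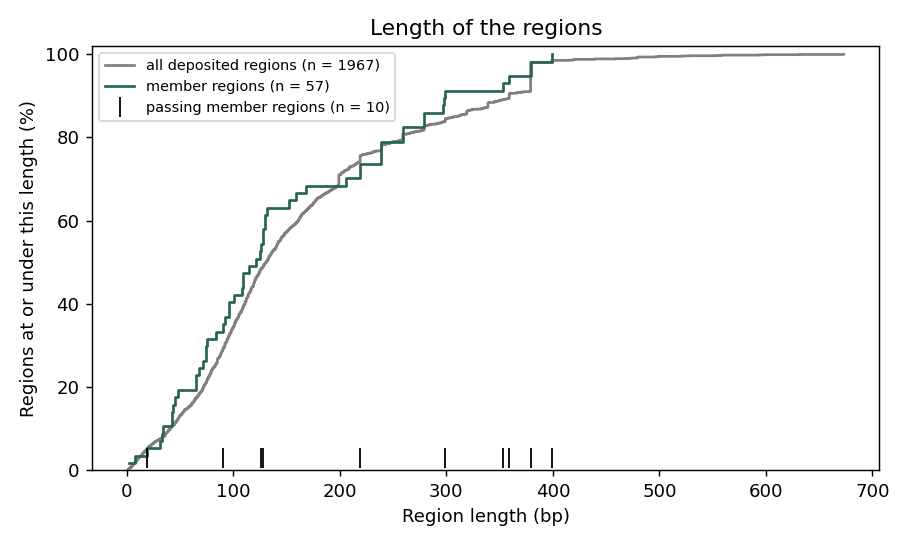
Share of regions at or under a given length (y axis, percent) for the 57 member regions and all 1967 deposited regions, by length in bp (x axis); ticks mark the 10 passing members. The passing members ran from 19 bp in Huwe1 to 399 bp in Klhl42.

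Many edges fell on a 20 bp grid. In 15 members (26.3%) both edges did, beside 21.7% of all regions, in 27 a single edge did and in 15 neither. Among the passing members with both edges on the grid were N4bp1, Rnf103, Keap1, Klhl42 and Huwe1.

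The share of genes listed differed between classes, some of which hold few genes, and these differences were not tested. In GRCr8, 415 protein-coding genes matched the rule, and 49 (11.8%) of them had a listed region, beside 6.86% of all 23154 protein-coding genes. The share was 35.0% for HECT ligases (7 of 20), 37.5% for cullins (3 of 8), 15.8% for BTB-Kelch adaptors (6 of 38) and 13.5% for the RING and Ubr class (14 of 104). It was 12.3% for deubiquitinases (8 of 65), 6.52% for E2 genes (3 of 46), 6.06% for F-box genes (4 of 66) and 3.33% for TRIM ligases (2 of 60). U-box ligases had 1 of 2 genes listed and Birc genes 0 of 5. Which of these genes the cells express is unknown, and member genes spanned a median of 66.2 kb in GRCr8, beside 39.4 kb for all listed genes. Both medians cover listed genes only, so they do not compare the rule's 415 genes with all protein-coding genes. The part of expression and of gene length in these shares was not tested. Of the genes taken by exact name, all except Nedd4l were listed. That choice was made with earlier results of these data known, so the shares that include these genes are partly set by it.

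The annotation deposited with the regions placed 54 of the 57 rows in a ubiquitin term; the rows of Fbxo46, Klhl11 and Trim46 carried none. The KEGG pathway for ubiquitin-mediated proteolysis held 10 member genes, Cbl, Cul3, Cul5, Herc2, Keap1, Nedd4, Smurf2, Ube2j2, Ube2u and Ube4b, and only Keap1 of these had a passing region. The Cul3-RING ligase complex was annotated for Cul3, Keap1, Klhl3, Klhl25, Klhl38 and Klhl42, of which Keap1 was higher and the other 5 lower. Smad binding was annotated for Rnf111 and Smurf2, both lower. Over all deposited regions 14% passed and 86.9% were lower, and no result is read from so few genes. In the order given, these terms were also annotated for 7, 4 and 11 listed genes outside the rule.

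Outside the rule, a list of 240 further ubiquitin, ubiquitin-like and proteasome genes held 23 genes with 24 regions, all of them lower, where 86.9% of all deposited regions were. Of the 24 regions 6 passed, beside 13% of all lower regions, in Rlim, Peli2, Cyld, Psmd4 and Otub1; with so few regions no result about the list is read from these counts. Cyld, a deubiquitinase that restrains NF-kappaB, was listed at 61.5-fold with an FDR of 0.0137 in the authors' deposited table, based on 12 implied vector reads against 0. Otub1, another deubiquitinase, was listed at 66.6-fold with an FDR of 0.0237 in the authors' deposited table, based on 13 against 0. Psmd4, a ubiquitin receptor of the proteasome, and Peli2, a Pellino RING ligase of innate immune signalling, were listed at 71.7-fold and 71.3-fold in the authors' deposited table, based on 14 against 0 each. Rlim was listed at 2 places on chromosome X with an identical fold of 4.57 and FDR of 0.00644 in the authors' deposited table, based on 32 against 28 implied reads, so its reads are uncertain.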

How the data were processed

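Per the submitters' processing notes, Trimmomatic 0.36 was used. Not given in the sources used here are the aligner, genome build, caller settings, test and any use of input. The authors deposited 2 tables, for higher and lower regions, with per region a fold (a ratio of at least 4 in either direction), a p-value under 0.05, an FDR (adjusted p) and a score, the −log10 of that p. Values per library were not used, so depth is unknown, and the tests planned for values per library gave way to counts of the authors' calls. Implied reads were derived from the folds as the smallest whole numbers that fit (means of 2 decimals, steps calibrated on folds with a single decimal, of which 97.1% of lower and 96.7% of higher means under 6 lay within 0.015 of a step). The derivation was tested on simulated data. The derivation tries 0 first and was given the simulated weights and constant, so recovery of pairs against 0 was fixed in advance. Only part of the pairs with reads in both conditions had to be recovered, so such pairs are less certain. The form of the folds and the weights were not tested there. For Fbxo25 other small pairs fit too. Coordinates and lengths are as deposited, in a build other than GRCr8. Starts often lie 1 past a multiple of 20 (845 of 1967) and seldom on one (62), as when counted from 1; for edges off the grid this is not settled. Gene IDs matched the RefSeq table of GRCr8 in 56 of 57 rows; Cul7 was matched by symbol. Where a region lies in its transcript, and its sequence, were not analysed here. Members, lists and rules were chosen with earlier results of these data known. The rule for naming took all passing members, those with the smallest p per class and direction, the longest, shortest and largest folds, those nearest the threshold and genes with several regions; others were added so that most genes are described. Some results are not reported here. Alternatives were a stricter threshold, other sets of members or regions and other readings of the fold. Tools were Python 3.11.15, pandas 2.3.3, numpy 2.4.6 and matplotlib 3.10.9.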

Additional observations from a re-analysis of the deposited data

How the results depend on the processing

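Of the 57 member regions, 8 lower and 2 higher ones passed, and 6 and 1 did at an adjusted p under 0.01. All deposited regions gave 4.78% lower and 0.915% higher at that stricter threshold. Ubr3 and Huwe1 were among the members that no longer passed. Taking every deposited region gave 51 and 6. Without single-decimal folds they were 3 and 0, and an implied mean of at least 10 also gave 3 and 0. Without the adaptors and N4bp1 the counts were 5 and 1, and with the wider list 14 and 2. Counting genes, or only rows with a ubiquitin term, left 8 and 2. Both edges on the 20 bp grid, chosen after seeing the data, gave 4 and 2. The subsets differ in size by how they are built; any further cause was not tested. With 3 reads in place of a 0, the median fold went from 21.2 to 6.80 (lower) and from 41.0 to 2.65 (higher). As ratios of reads, also with 3 reads in place of a 0, it went to 1.67 and 10.8, a reading added after seeing the data. Of the 10 passing folds, 7 rest on an implied 0. No paired analysis was possible because only a fold and p-values were used for each region; leaving out a library, another normalization and a filter on low values were not run for the same reason.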

Other observations

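Chromosome 5 held 12 of the 57 member regions (21.1%), where it held 5.90% of all deposited regions. The 12 lay in 9 genes, Ubr4, Usp24, Rnf11l1, Hectd3, Trim62, Ube2j2, Ube2u, Usp48 and Ube4b, or 18.4% of the members. Of the 415 protein-coding genes that match the rule in GRCr8, 39 (9.40%) lie on chromosome 5, and of all protein-coding genes 5.96% do. None of the 12 regions passed, and 10 were lower. This pattern was noticed in the data and was not tested.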
